A study of Drosophila melanogaster with 32 samples.

Results

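The serpins of Drosophila melanogaster were followed here through mated females of 8 laboratory populations. Members were the genes whose single symbol in the platform annotation begins with Spn and a digit, each represented by its probe set of highest mean. The rule found 27 serpin genes among 11981 genes with a named probe set. Of these, 8 lie on chromosome arm 2L, 11 on 2R, 4 on 3L and 4 on 3R. A pair of family genes that carry other symbols, necrotic (nec) and Acp76A, fell outside the rule.

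Serpins are protease inhibitors that work once. A target protease cuts an exposed loop of the inhibitor and is trapped in a covalent complex, so the supply of inhibitor limits the proteolysis. In flies, secreted serpins hold back the blood protease cascades that lead to Toll signalling and to melanization, and others are transferred to the female in the seminal fluid.

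Expression was measured on 32 Affymetrix arrays of whole adult females. All populations came from the LHM stock, and no transgene or mutation is given in the labels. For 46 generations, 4 populations mated once per generation (monogamous, Mono1 to Mono4) and 4 kept the stock's usual mating protocol (promiscuous, Prom1 to Prom4). Females then met males of their own population or of the same-numbered population of the other regime, were frozen 6 h after mating, and gave 16 crosses with 1 array in each of 2 batches. The 4 groups of 8 arrays were therefore Mono females with Mono males, Mono females with Prom males, Prom females with Mono males and Prom females with Prom males. The labels give no age. Female population and the number of its mates always went together, so a population's value stands for both. The labels do not say how many flies an array pooled or whether the arrays of a cross came from separate matings.

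Values are log2 expression, in which a difference of 1 is a doubling, and probe sets of different genes are not on a common scale. Arrays of the same cross correlated at 0.996 to 0.998 over all probe sets, and arrays of different populations at 0.994 to 0.997. The 13 ovary markers averaged 11.02 to 11.16 in the 8 populations. In batch 2 the difference between 3' and 5' control probe sets was larger by 1.00 for actin and by 0.40 for GAPDH. A pair of batch 2 arrays, Mono1 and Prom1 females with Mono1 males, stood apart in Spn28Dc and in antimicrobial peptide genes, and the counts and the values that move most without them are also given in that form.

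The strongest serpin differences lay between populations of the same regime. Of the 27 serpins, 5 differed among the 4 Mono or the 4 Prom populations beyond the spread between replicate arrays (limma's moderated F test, adjusted p under 0.05). This is 18.5%, against 13.7% of all 18769 probe sets. Of the 11981 genes with 1 probe set each, 2083 were called. The 5 serpins were Spn38F, Spn43Aa, Spn42Da, Spn42Dd and Spn55B. Among the Mono populations alone 6 serpins passed (background 10.7%), and among the Prom populations alone 3 passed (background 7.67%). The median range of the 8 population means was 0.24 over the 27 serpins and 0.21 over all genes. The widest ranges, 3.16 for Spn38F and 1.50 for Spn43Aa, were the only 2 above 1, a size reached by 7.41% of serpins and 3.06% of all genes. Whether serpins differ from other genes in these shares was not tested.

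**Figure D1:**
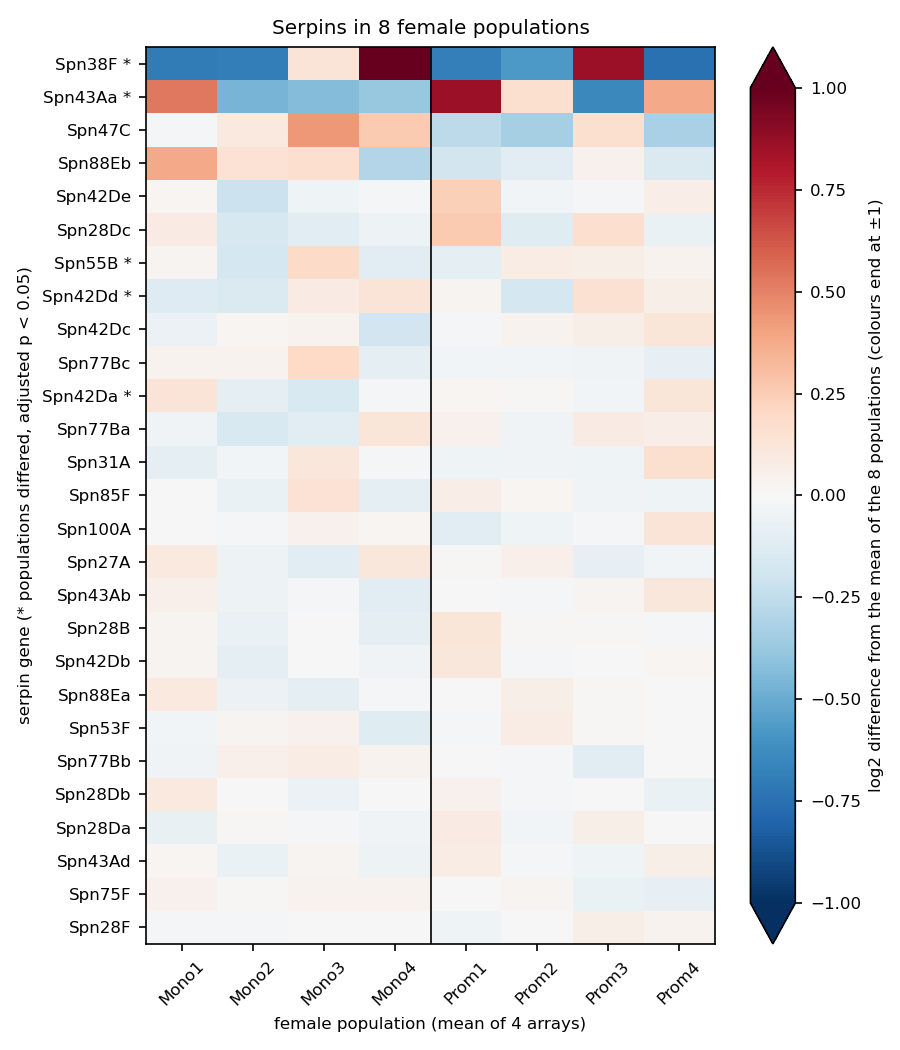
Mean log2 expression of each of the 27 serpins in the 8 female populations, as the difference from that gene's mean over the populations. Rows are ordered by the range of the population means, colours end at 1 in both directions, and the 5 serpins marked with a star differed among populations of the same regime. Spn38F in Mono4 and Prom3 and Spn43Aa in Prom1 and Mono1 stand out.

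Spn38F is a seminal fluid serpin made in the male accessory gland. Its population means were 2.95 in Mono1, 2.95 in Mono2, 3.78 in Mono3 and 6.06 in Mono4. Among the Prom females they were 2.96 in Prom1, 3.07 in Prom2, 4.50 in Prom3 and 2.90 in Prom4. The gene was thus low in 5 populations and raised in Mono4, Prom3 and Mono3. From Prom4 to Mono4 the means differed by 3.16, a difference across the regimes that the F test does not cover. Within regimes the means ranged over 3.11 in Mono and 1.60 in Prom populations. The F test gave an adjusted p of 4.32e-07 over both regimes, 3.82e-07 among Mono and 0.0015 among Prom populations. No background level was used for the low values, so no fold is given. Without Mono4 the widest range within a regime was 1.60 in place of 3.11, and the test was still passed (adjusted p = 0.00212).

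Single arrays showed the same split. Mono4 females gave 5.24 and 6.17 after mating with Mono4 males and 6.24 and 6.57 after mating with Prom4 males. Prom3 females gave 4.24 and 4.62 with Mono3 males and 4.21 and 4.91 with Prom3 males. All 8 of these arrays lay above every array of Mono1, Mono2, Prom1, Prom2 and Prom4, which ranged from 2.71 to 3.24. The raised level was therefore present with either kind of mate. Mono3 was divided by batch: its batch 1 arrays gave 2.94 and 3.04, within the low range, and its batch 2 arrays gave 4.998 and 4.13. The Spn38F replicate standard deviation, 0.46, was the largest of the 27 serpins, and the batch difference over all populations was 0.29 (adjusted p = 0.168). The actin control difference was largest in Mono3, at 2.61, and Prom3, at 2.50, with 2.39 in Mono4 and 2.29 to 2.46 in the rest, and its part in the result was not tested.

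No call fell on the marker genes of the male organs. None of the 17 accessory gland markers passed, and their mean lay between 3.54 and 3.58 in the 8 populations. Sex peptide (SP), the seminal peptide that changes female behaviour after mating, lay between 3.55 and 3.68 in all 8 population means. The 15 testis markers also had no call, and their mean lay between 3.47 and 3.55. The other 5 seminal serpins, Spn28F, Spn53F, Spn75F, Spn77Bb and Spn77Bc, had no call either, with population ranges of 0.10 to 0.30. All of these genes except Acp95EF (mean 7.06) averaged below a log2 of 5, and no background level was used. The lack of calls therefore cannot tell equal expression from a signal too low to follow. Acp76A, an accessory gland serpin outside the naming rule, did pass (limma adjusted p = 0.0242), at a mean of 3.35. In whole flies, fewer cells of a type and less RNA per cell cannot be told apart.

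**Figure D2:**
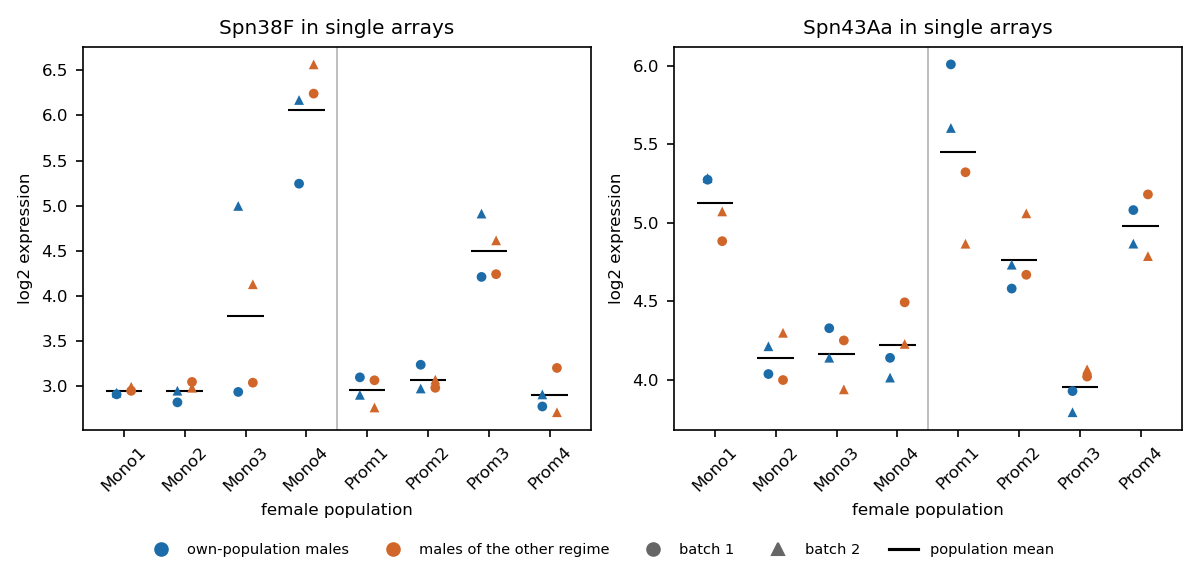
Log2 expression of Spn38F (left) and Spn43Aa (right) in each of the 32 arrays, by female population. Colour gives the kind of male, symbol shape gives the batch, and horizontal bars are population means of 4 arrays. Spn38F was raised in all Mono4 and Prom3 arrays and in the 2 batch 2 arrays of Mono3, and Spn43Aa was higher in Mono1, Prom1, Prom2 and Prom4 than in the other 4 populations.

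Spn43Aa belongs to the serpin cluster on arm 2R that also holds Spn43Ab, Spn43Ad and nec. Population means were 5.13 in Mono1, 4.14 in Mono2, 4.16 in Mono3 and 4.22 in Mono4, and 5.45 in Prom1, 4.76 in Prom2, 3.95 in Prom3 and 4.98 in Prom4. Mono1 stood above the other Mono populations, and Prom3 below the other Prom populations. The highest and lowest means differed by 1.50 (adjusted p = 9.42e-08 over both regimes, 1.22e-05 among Mono and 6.88e-07 among Prom populations). Without Prom3 the widest range within a regime was 0.99 in place of 1.50, still with a call (adjusted p = 3.13e-05). Every array of Mono1, Prom1, Prom2 and Prom4 lay between 4.58 and 6.01 and every array of the other 4 populations between 3.79 and 4.49, with no overlap. Within Prom1, females gave 6.01 and 5.60 with Prom1 males and 5.32 and 4.87 with Mono1 males. Spn43Ab and Spn43Ad did not pass the test, with ranges of 0.21 and 0.14.

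The cytochrome P450 genes on one side of Spn43Aa also differed among populations. Neighbours, a comparison chosen after the values had been seen, were the nearest 4 genes with a named probe set on each side of the 5 serpins. The Cyp9b1 means were 5.09 (Mono1), 5.04 (Prom1), 5.05 (Prom2) and 4.93 (Prom4), against 5.85 (Mono2), 5.86 (Mono3), 5.83 (Mono4) and 6.08 (Prom3). The 4 populations with the most Spn43Aa were thus those with the least Cyp9b1. Their arrays reached at most 5.37 for Cyp9b1, and those of the other 4 populations were never below 5.57.

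Cyp9b2, which lies between Cyp9b1 and Spn43Aa, took the opposite direction. Its means were 9.87 (Mono1), 9.61 (Prom1), 9.57 (Prom2) and 9.52 (Prom4), and 9.24 (Mono2), 9.29 (Mono3), 9.17 (Mono4) and 9.02 (Prom3). The same populations were therefore high in Cyp9b2 and Spn43Aa, although single arrays of the sets overlapped for Cyp9b2. On the far side, CG12828, Spn43Ab, Spn43Ad and nec had no call.

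**Figure D3:**
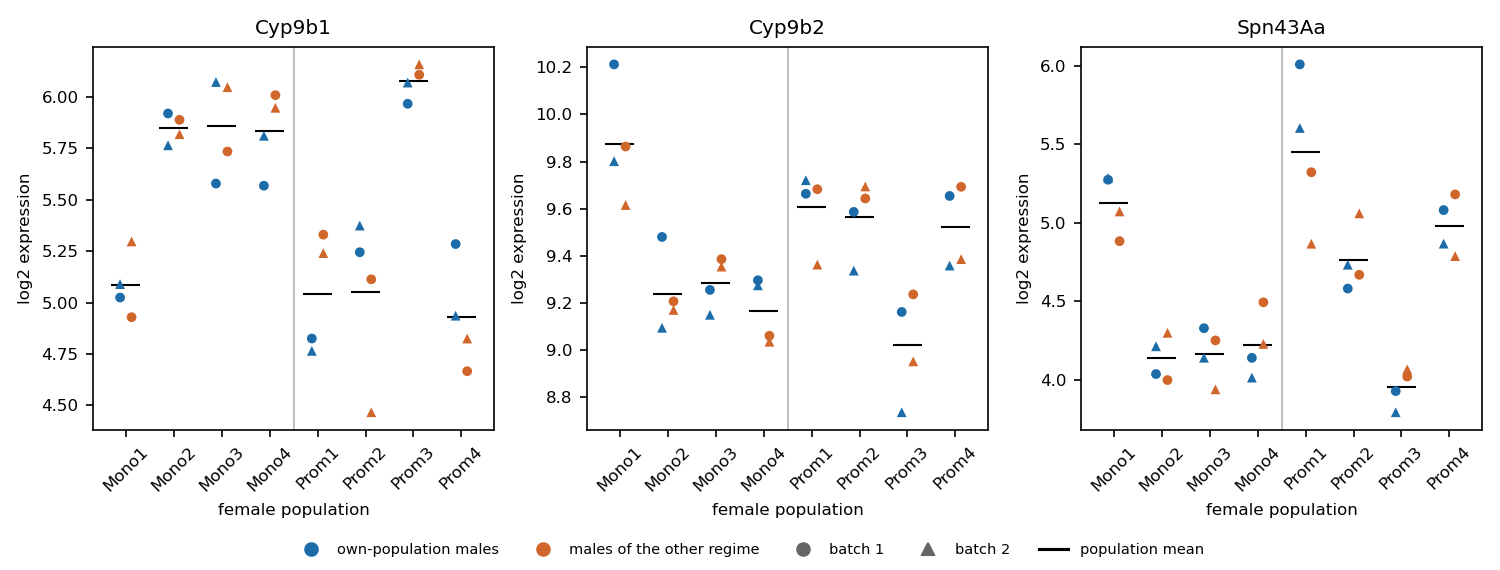
Log2 expression of Cyp9b1, Cyp9b2 and Spn43Aa, which follow each other in gene order among genes with a probe set, in each array by female population. Colour gives the kind of male, symbol shape the batch and bars the population means. Mono1, Prom1, Prom2 and Prom4 were low in Cyp9b1 and high in Cyp9b2 and Spn43Aa.

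Around Spn38F, the flanking genes Oseg5 and CG31676 had no call. Further off, CG9331 averaged 11.10 in Mono3, 11.08 in Prom3 and 11.03 in Mono4, against 10.87 in Mono2, 10.74 in Prom2, 10.59 in Prom4, 10.54 in Mono1 and 10.49 in Prom1. By population means, the 3 populations with the most CG9331 were the 3 with the most Spn38F. Single arrays did not all follow. The batch 1 arrays of Mono3 gave 11.16 and 11.10 for CG9331, with Spn38F low at 2.94 and 3.04. Arrays of the sets also overlapped for CG9331, with up to 11.01 in Prom2 and down to 10.89 in Mono4. CG31674 was low in Mono1, at 7.26 against 7.76 to 7.83 in the other Mono populations, and CG14400 also passed. Over all 28 neighbours outside the serpin family, 5 passed, or 17.9%, against 13.7% of all probe sets and 2083 of 11981 genes.

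The other 3 called serpins differed by less than 0.4. Spn42Da encodes a serpin with a form that inhibits furin, a protease that matures precursor proteins. Its means were 9.30 in Mono1, 9.08 in Mono2, 9.02 in Mono3, 9.16 in Mono4, 9.19 in Prom1, 9.19 in Prom2, 9.15 in Prom3 and 9.29 in Prom4. Mono1 was highest and Mono3 lowest, a range of 0.29 (adjusted p = 0.00266), while the Prom populations alone did not pass (adjusted p = 0.24). Without Mono1 the range was 0.15 and the call was lost (adjusted p = 0.0949). A second probe set of Spn42Da ranged over 0.55 across the regimes and was also lowest in Mono3. Within regimes it ranged over 0.52 in Mono and 0.27 in Prom populations (adjusted p = 1.22e-04). It passed among the Prom populations alone (adjusted p = 0.034). The first probe set was lower in batch 2 by 0.15 (adjusted p = 2.11e-04), and the second differed between batches by 0.05 (adjusted p = 0.336).

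Spn42Dd, 3 genes further in the same cluster and reported to restrain the Toll response, varied in a different order. It averaged 8.18 in Mono1, 8.16 in Mono2, 8.39 in Mono3, 8.44 in Mono4, 8.34 in Prom1, 8.13 in Prom2, 8.46 in Prom3 and 8.37 in Prom4 (adjusted p = 0.00575). Mono1, Mono2 and Prom2 were low, and both regimes passed alone. Without Prom2 the call over both regimes was lost (adjusted p = 0.0539). The cluster members Spn42Db, Spn42Dc and Spn42De had no call, with ranges of 0.20, 0.32 and 0.45.

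Spn55B averaged 8.42 in Mono1, 8.21 in Mono2, 8.58 in Mono3, 8.28 in Mono4, 8.30 in Prom1, 8.46 in Prom2, 8.45 in Prom3 and 8.43 in Prom4 (adjusted p = 0.00228). The difference lay among the Mono populations, where all 4 Mono3 arrays, from 8.54 to 8.64, were above every other Mono array. Without Mono3 the range was 0.21 and the call was lost (adjusted p = 0.0812). Prom populations alone did not pass (adjusted p = 0.288). Spn88Eb passed only in the Mono fit (adjusted p = 0.0403), with means of 8.05 in Mono1, 7.81 in Mono2, 7.84 in Mono3 and 7.37 in Mono4. All 4 Mono4 arrays, at most 7.45, lay below all arrays of the other Mono populations. Without the pair of arrays named above, 6 serpins passed over both regimes, the same 5 with Spn88Eb added. The calls over all probe sets in that fit are not given here, so the added call has no background beside it.

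No other member passed over both regimes. Of the 5 serpins of the Toll and melanization cascades, only Spn42Dd passed. Spn27A, the inhibitor that restrains the Toll-activating protease Easter and melanization, ranged over 0.22, Spn77Ba, which restrains melanization of the trachea, over 0.28, and Spn88Ea, a negative regulator of Toll, over 0.19. Spn28Dc ranged over 0.42. The probe sets of Spn77Ba and Spn88Ea are of a type that can match other transcripts. In the Mono populations alone Spn27A, Spn77Ba and Spn88Ea had adjusted p-values of 0.064, 0.158 and 0.0894. Spn28B, Spn28Da, Spn28Db, Spn31A, Spn85F and Spn100A had ranges of 0.15 to 0.25. Across the regimes, the widest range without a call was that of Spn47C, 0.77, followed by Spn88Eb. The F test compares populations of the same regime only. There Spn47C ranged over 0.46 in Mono and 0.49 in Prom populations (adjusted p = 0.0693). Spn88Eb ranged over more in Mono populations, 0.68, and over 0.22 in Prom populations (adjusted p = 0.0947).

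The female regime, the first planned comparison, asked whether females that evolved under promiscuity differ from females that evolved under monogamy. In limma on 4 against 4 population means, 0 of 27 serpins and 0 of 18769 probe sets passed an adjusted p under 0.05. At an unadjusted p under 0.05 there was 1 serpin, Spn47C, against a background of 6.99%. Serpins were higher in Prom females for 17 genes and lower for 10, with a median difference of 0.03, and the median over all genes was 0.00. Without the pair of arrays that stood apart, 3 serpins had an unadjusted p under 0.05, Spn42Dc, Spn42De and Spn47C (background 7.65%). After adjustment 0 passed.

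Spn47C came closest. Mono means were 4.85, 4.97, 5.31 and 5.13 and Prom means 4.61, 4.54, 5.03 and 4.55, in the order of population numbers. The regimes overlapped because Prom3 lay above Mono1 and Mono2. The regime means were 5.07 ± 0.20 and 4.68 ± 0.23 (SD, n = 4 populations each). The difference was -0.38 ± 0.13 (SE; limma adjusted p = 0.627), with -0.29 in batch 1 and -0.48 in batch 2.

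Spn75F, Spn42De and Spn42Dc followed. Spn75F, a seminal serpin, averaged 3.49 ± 0.01 in Mono and 3.43 ± 0.05 in Prom females (difference -0.06 ± 0.03, limma adjusted p = 0.755), and the difference was -0.03 without that pair of arrays. Spn42De averaged 5.06 ± 0.11 and 5.18 ± 0.12 (0.13 ± 0.07, limma adjusted p = 0.764), and Spn42Dc 5.95 ± 0.11 and 6.04 ± 0.06 (0.10 ± 0.06, limma adjusted p = 0.764). In none of the 27 serpins were the population means of the regimes fully separated. For 4 against 4 means without a difference, full separation has a probability of 0.0286. The count is therefore not a result about serpins. The 2 serpins that varied most among populations had regime differences smaller than or close to their errors, -0.58 ± 0.68 for Spn38F and 0.37 ± 0.33 for Spn43Aa.

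**Figure D4:**
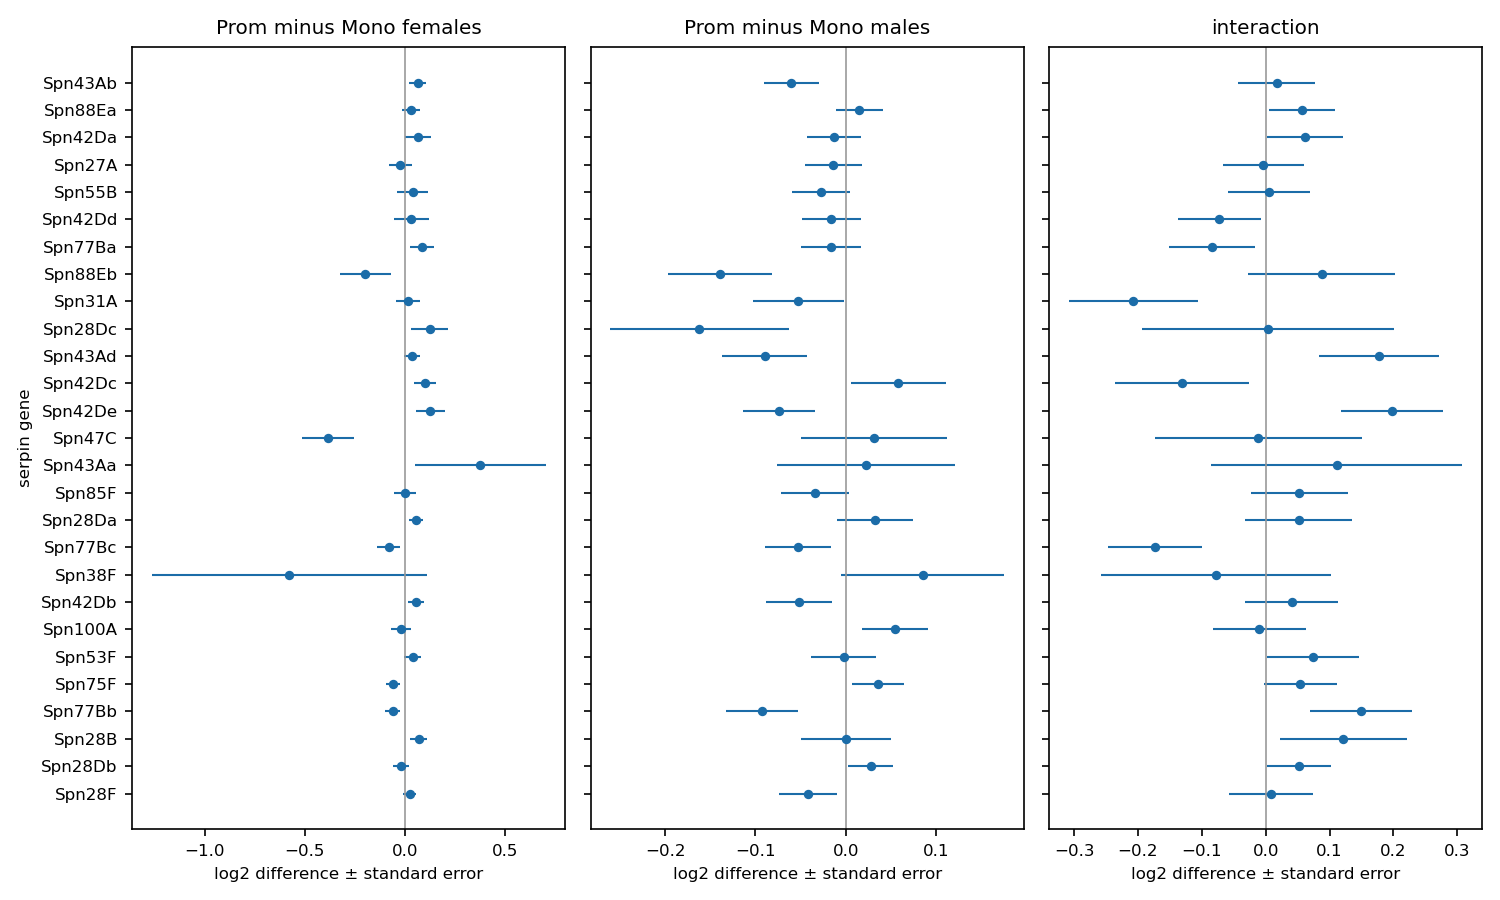
Differences of the 27 serpins with their standard errors on the log2 scale for the female regime (left), the male regime (middle) and the interaction (right), with genes ordered by mean level and horizontal scales that differ between panels. No serpin passed the adjusted threshold in any panel. Spn38F and Spn43Aa had the widest errors for the female regime, and Spn28Dc had the widest for the male regime.

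The male regime asked whether a female's serpins depend on the regime her mate came from. The difference, Prom minus Mono male within each female population, passed for 0 of 27 serpins and 0 of all probe sets in limma. Unadjusted p was under 0.05 for 2 serpins, Spn88Eb and Spn77Bb (background 10.5%), both lower after mating with Prom males (background 5.4% lower). Of the 27, 17 were lower and 10 higher, with a median of -0.02 (all genes 0.00). The 8 differences rest on 4 pairs of male populations. With the pair of arrays that stood apart left out, 3 serpins had an unadjusted p under 0.05, Spn42Db, Spn77Bb and Spn88Eb (background 11.5%).

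Spn88Eb differed by -0.58 in Mono1 females, -0.10 in Mono2, 0.04 in Mono3, -0.09 in Mono4, -0.11 in Prom1, -0.13 in Prom2, -0.12 in Prom3 and -0.03 in Prom4. It was lower with Prom males in 7 of 8 populations, and Mono1 carried the largest difference. The mean was -0.14 ± 0.06 (SE; limma adjusted p = 0.451). The batches disagreed, with 0.02 in batch 1 and -0.30 in batch 2, and without the pair of arrays that stood apart the mean was -0.07. Spn77Bb, a seminal serpin with a low mean level of 3.45, was lower in 6 of 8 populations (-0.09 ± 0.04, limma adjusted p = 0.459). Its difference had its extremes in Mono3, at -0.34, and Prom1, at 0.14, and its mean without the pair of arrays was -0.12.

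Spn43Ab was lower in 7 of 8 (-0.06 ± 0.03, limma adjusted p = 0.511) and Spn43Ad in 6 of 8 (-0.09 ± 0.05, limma adjusted p = 0.524). Spn43Ab spanned -0.15 in Mono1 and in Mono4 to 0.08 in Mono3, and Spn43Ad -0.30 in Mono4 to 0.17 in Prom1. Both had an unadjusted p above the threshold, and the Spn43Ad difference was -0.06 without the pair of arrays.

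Spn28Dc, which restrains phenoloxidase activity around wounds, had the largest male difference of the family, -0.16 ± 0.10, without passing (limma adjusted p = 0.574). It was -0.65 in Mono1 and -0.68 in Prom1 females, and between -0.15 and 0.16 in the other 6 populations. Batch 1 gave 0.00 and batch 2 gave -0.32. The arrays behind it were the batch 2 arrays of Mono1 and Prom1 females with Mono1 males, at 7.48 and 7.54, while the other 30 arrays lay between 5.94 and 6.58. The batch 1 arrays of the same crosses gave 5.97 and 6.28, within that range. Without the pair of arrays the male difference was 0.01.

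Antimicrobial peptide genes, a list added after these values were seen, were high in the same arrays. Both arrays held the top 2 values of 4 of the 6 peptide genes measured: AttD, CecB, DptB and Mtk. CecB, a cecropin, gave 8.05 and 8.00 against 5.57 to 6.53 in the other 30 arrays. DptB, a diptericin, gave 12.82 and 11.34 against 6.52 to 10.87. Mtk, metchnikowin, gave 13.24 and 12.03 against 7.40 to 11.77. Raised DptB without raised Spn28Dc was also seen, as the array of Mono1 females with Mono1 males in batch 1 shows, with DptB at 10.87 and Spn28Dc at 5.97.

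For Drs and Def the Mono1 array was highest, at 13.41 and 9.38, and the Prom1 array ranked 17 and 14 of 32. Spn88Eb, Spn43Ab and Spn77Ba were also highest of all 32 arrays in the Mono1 array, at 8.92, 11.01 and 8.21. In the Prom1 array they ranked 25, 18 and 13. Of these 4 serpins, Spn28Dc alone held its top 2 values in this pair of arrays. Spn43Ad and Spn42De were highest in the Mono1 array too, at 6.42 and 5.63, with 6.15 and 5.39 in the Prom1 array. The family gene nec, outside the naming rule, gave 9.40 and 9.12, ranked 1 and 3 of 32. What moved these genes together was not tested.

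**Figure D5:**
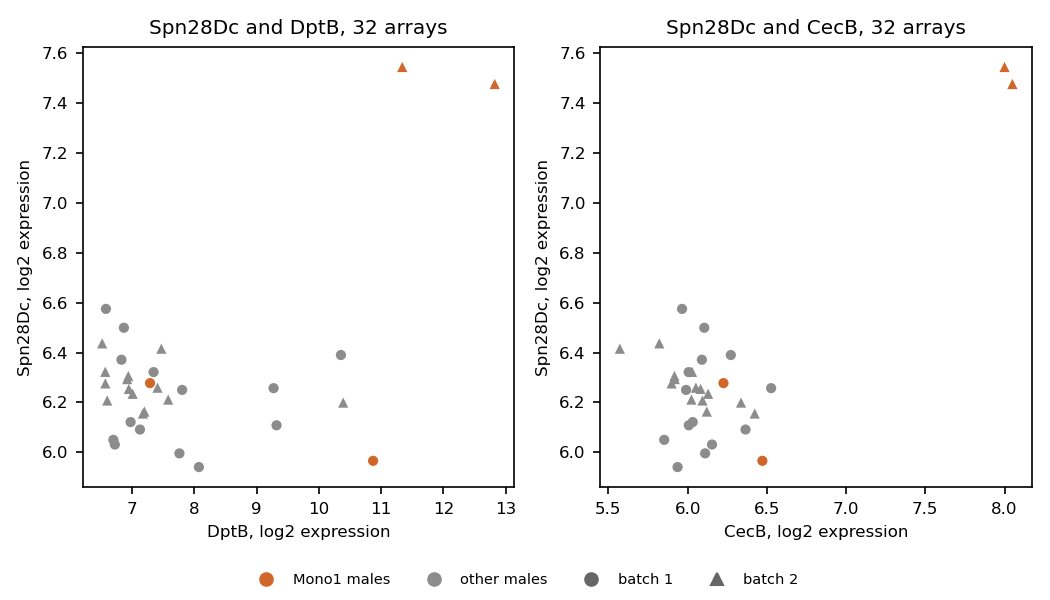
Spn28Dc against the antimicrobial peptide genes DptB (left) and CecB (right) in each of the 32 arrays, all on log2 scales. Orange marks females mated with Mono1 males, circles batch 1 and triangles batch 2. The pair of batch 2 arrays with Mono1 males lies apart from the other 30 for Spn28Dc and CecB, while DptB was also near 9 to 11 in several arrays with ordinary Spn28Dc.

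The interaction, the male difference in Prom females minus that in Mono females, asked whether the response to the mate depends on the female's own regime. It cannot separate mates from the own population from mates of the own regime. In limma 0 serpins and 0 probe sets passed, and 2 serpins had an unadjusted p under 0.05, Spn42De and Spn77Bc (background 7.28%). The median was 0.04 over serpins and 0.00 over all genes. Without the pair of arrays that stood apart, 1 serpin had such a p, Spn31A (background 8.11%). Neither Spn42De (interaction 0.14) nor Spn77Bc (-0.15) did.

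Spn42De had an interaction of 0.20 ± 0.08 (SE; limma adjusted p = 0.668). Its male difference was -0.17 in Mono females and 0.02 in Prom females. Mono1, at -0.39, held the largest of the 8, and Mono3 was at 0.00. The Mono1 array of the pair that stood apart gave 5.63, the highest Spn42De of all 32 arrays. Spn77Bc, a seminal serpin with a low mean level of 3.79, had an interaction of -0.17 ± 0.07 (limma adjusted p = 0.683). The male difference of Spn77Bc was 0.03 in Mono and -0.14 in Prom females. Spn77Bc was lower with Prom males in 4 of 4 Prom populations and in 2 of 4 Mono populations.

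Spn31A gave -0.21 ± 0.10 (limma adjusted p = 0.688), and was lower with Prom males in all 4 Prom populations, from -0.01 in Prom4 to -0.42 in Prom3. Spn43Ad gave 0.18 ± 0.09 (limma adjusted p = 0.712), with lower values in all 4 Mono populations and in 2 of 4 Prom populations. No serpin moved one way in all Mono and the other way in all Prom populations. Within Mono females alone, 4 serpins had an unadjusted p under 0.05 for the male regime, all lower (background 3.95% lower), and 0 passed after adjustment. Without the pair of arrays, 1 serpin, Spn77Bb, had an unadjusted p under 0.05 there (background 8.76% in either direction).

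Batch changed 2 serpins (background 19.8%), Spn42Da and Spn42Db, both lower in batch 2 (background 9.57% lower). Spn42Db fell by 0.10 (adjusted p = 0.0429). Spn42De was 0.15 higher in batch 2 without passing (adjusted p = 0.062). With cyclic loess normalization, or with only probe sets of mean log2 of at least 5, the 2 called were Spn42Da and Spn42De. Each population held both batches equally.

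The proteases and partners that these serpins act with gave a wider comparison. Of 34 genes of the Toll and melanization cascades with a probe set, 9 differed among populations of the same regime, or 26.5%. Calls fell on 13.7% of all probe sets and on 2083 of 11981 genes. In a fit of probe sets with a mean log2 of at least 5, they fell on 2792 of 10135. The median range of the 34 genes was 0.28, against 0.21 for all genes. Neither the female regime, the male regime nor the interaction called any of the 34, and 3, 4 and 3 of them had an unadjusted p under 0.05, or 8.82%, 11.8% and 8.82%, close to the backgrounds of 6.99%, 10.5% and 7.28%.

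The largest difference was in pip, the sulfotransferase that sets up Toll activation in the egg. It averaged 7.45 in Mono1, 7.62 in Mono2, 7.45 in Mono3 and 6.76 in Mono4, and 6.54 in Prom1, 7.50 in Prom2, 6.46 in Prom3 and 6.17 in Prom4 (adjusted p = 5.31e-06). Prom2 stood with the higher Mono populations, and Mono4 with the lower Prom ones. The regime difference of pip was -0.65 (limma adjusted p = 0.712).

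Fur2, a furin protease, averaged 9.52 in Mono3 and 10.25 to 10.56 in the other 7 populations (adjusted p = 2.11e-05). Mono3 was also the population with the least Spn42Da on both of its probe sets. The mean of 7 spermatheca markers was lowest in Mono3 too, at 5.99 against 6.50 to 7.16 elsewhere. Send1, Send2, CG17239 and Hr39 were lowest there, while CG32834, CG32833 and lz were lowest in other populations. Send2 spanned most, from 4.71 in Mono3 to 8.63 in Prom2. The part of these markers in the Fur2 and Spn42Da differences was not tested. Sp7, a protease of the melanization cascade, ranged from 8.07 in Mono2 to 8.44 in Mono4 (adjusted p = 7.86e-05). Across the regimes, the dopachrome-converting enzyme gene yellow-f ranged from 4.47 in Mono2 to 5.22 in Prom1. Within regimes it ranged over 0.58 in Mono and 0.66 in Prom populations (adjusted p = 2.04e-04).

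PPO1 and PPO2, the prophenoloxidases of the crystal cells that melanization serpins hold in check, also passed. PPO1 was 8.19 in Prom1 and 7.89 in Prom4 against 7.26 in Prom2 and 7.24 in Prom3. PPO2 gave 8.41 and 8.29 against 7.64 and 7.84 in the same populations. Both were called among Prom populations and not among Mono populations, where adjusted p was 0.26 and 0.721. Hemocyte markers averaged 7.13 to 7.24 by population, and 1 of 11 passed. The other 3 that passed were sphe, pll and GNBP3.

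The lowest unadjusted p-values for the regimes fell on other genes. For the female regime these were PPO3 (-0.21, adjusted p = 0.578), psh (0.12), pip and ndl (0.17). For the male regime they were Hayan (-0.11, adjusted p = 0.402), gd (0.10), nec (-0.10) and yellow-f (-0.09), and for the interaction amon (-0.24, adjusted p = 0.661), psh (-0.15), spz (0.11) and sphinx2 (0.20). In batch 2, Dif (0.32), gd (0.23) and yellow-f (0.17) were higher, and dl (0.10, adjusted p = 0.0513) did not pass.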

How the data were processed

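The deposited values are log2 expression per probe set and array, and the submitters' processing notes name RMA and affy without versions. RMA corrects background, equalises the distributions of the arrays and summarises probes, so a shift common to most genes would be lost. No background level per probe set was used, and the number of arrays limits precision. Of 18952 probe sets, 183 array controls were left out. The platform annotation gave 1 gene for 13646 probe sets, several for 402 and none named here for 4721. All 27 members matched the RefSeq table (Release 6 plus ISO1 MT), used for symbols, arms and gene order only.

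Tests used limma 3.58.1 in R 4.3.3, two-sided, with Benjamini-Hochberg adjustment over 18769 probe sets and a threshold of 0.05, and were tested on simulated data. Female regime used 8 population means. Male regime and interaction used 16 cross means with female population as a block. Populations within a regime used 32 arrays with crosses and batch as terms. Members, lists and tests were chosen with earlier results of these data known. All members were named; the 4 lowest p per regime comparison and all called among populations were given in full, and the 4 lowest p of the Toll list. P-values for populations and for batch measure the spread between the arrays, which may be partly technical. Those for the female regime rest on the spread between population means. Those for the male regime and the interaction rest on how the male difference varied between female populations. Population numbers were checked as pairs: correlations of same-numbered deviations were 0.13, 0.07, 0.19 and 0.02, not all above 0.1, so they were not treated as pairs, although 3 of 4 Mono populations matched their own number best. Alternatives are in the closing section.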

Additional observations from a re-analysis of the deposited data

Results flagged for a closer look

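Of 108 groups of 8 arrays examined (27 serpins in 4 groups), 7 held an array that lay apart from the other 7 by the size of its gap, which chance gives in about 1 in 20 groups. Spn28Dc was 7.48 in Mono1 females with Mono1 males in batch 2, with 6.39 the nearest value, and 7.54 in Prom1 females with Mono1 males in batch 2, with 6.50 the nearest. The Mono1 array also held the highest Spn88Eb, 8.92 against 7.89, and the highest Spn43Ab, 11.01 against 10.80. Spn42Dc was lowest, 5.56 against 5.99, in Prom3 females with Prom3 males in batch 2. Spn77Ba was lowest, 7.82 against 8.04, in Prom2 females with Mono2 males in batch 2. Spn85F was highest, 4.80 against 4.43, in Mono3 females with Mono3 males in batch 1.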

How the results depend on the processing

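Among populations, Spn38F and Spn43Aa passed under all 15 alternatives that tested them. The count of 5 serpins became 3 when only the 13 with a mean log2 of at least 5 were tested. This setting leaves out Spn38F and Spn43Aa, and it called 2792 of 10135 probe sets. The count was 2 in batch 1 alone (Spn38F and Spn43Aa, with 786 of all probe sets against 2572). It was 3 in batch 2 alone (the same 2 with Spn55B, and 1006 of all). The Prom count of 3 became 1 with the mean of at least 5, where 1567 of 10135 probe sets were called. Leaving out a population gave 3 to 6 for the Mono count of 6, with 3 (Spn42Da, Spn43Aa and Spn55B) without Mono4. The calls over all probe sets fell as well, from 2002 to 1412 without Mono4. They were also 1412 without Mono1, where 5 serpins passed. The Prom count became 1 to 3, with 1 (Spn43Aa) without Prom3. Over all probe sets the Prom calls fell from 1440 to 1013 without Prom1, where 3 serpins passed. Those without Prom3 are not given here. Spn42Da was lost under 4 alternatives (each batch alone, without Mono1 and without the batch term), Spn42Dd under 3 (each batch alone and without Prom2) and Spn55B under 2 (batch 1 alone and without Mono3). Batch called 1 serpin with an intensity trend, with 3793 of all probe sets against 3717. It also called 1 with the second Spn42Da probe set. Without the 2 arrays of highest Spn28Dc, an alternative chosen after seeing the data, batch called 1. For the female regime, treating 32 arrays as replicates called 1 serpin (Spn47C) and 515 probe sets, since arrays of a population then count as independent, whereas population as a random block called 0 serpins and 127 probe sets. With the population number as a replicate block, 0 serpins passed and 1363 probe sets had an unadjusted p under 0.05. Of the Mono populations, 3 of 4 correlated best with the Prom population of their own number, and Mono4 with Prom2. Male regime and interaction counts were 0 in every alternative. Spn88Eb reversed to 0.0193 for the male regime in batch 1, and Spn42Dc to -0.0024 for the female regime in batch 2, and the cause was not tested. Small differences were limited by 4 populations per regime.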

Other observations

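The family genes outside the naming rule were read from the same fits. Acp76A, an accessory gland serpin, differed among populations (limma adjusted p = 0.0242), and among the Prom populations alone (adjusted p = 0.00915), where it averaged 3.40 in Prom1, 3.49 in Prom2, 3.27 in Prom3 and 3.17 in Prom4. Its order differed from that of Spn38F, which was highest in Prom3 and lowest in Prom4. nec, the serpin that restrains the Toll-activating protease Persephone, did not pass (adjusted p = 0.0971), with means between 8.73 in Mono3 and 9.08 in Mono1.

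Markers of the spermatheca, the female organ that stores sperm, had the widest range of the list mean among the tissues examined. Of 7 markers 5 passed, against 13.7% of all probe sets, while Hr39 and lz did not (ranges 0.16 and 0.18). The mean ran from 5.99 in Mono3 to 7.16 in Mono1, an order that not all markers shared. CG32834 was lowest in Mono1, at 6.73. Of 11 fat body markers 3 passed, of 11 hemocyte markers 1, of 13 ovary markers 1 and of 9 digestive markers 8, with means that ranged over 0.21, 0.11, 0.14 and 0.16. Single digestive markers also varied widely, Mal-A1 over 1.50 and Jon99Ci over 1.15. Their part in the serpin differences was not tested.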
